A study of Homo sapiens with 4 samples.

Results

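Titin and nebulin are the giant proteins of the striated muscle sarcomere, encoded by TTN and NEB, and their mRNAs were examined here for internal N7-methylguanosine (m7G) in leukaemia cells. The members are the peaks that overlap an exon of TTN or NEB on the same strand by at least 1 bp. Of the 16192 peaks in the 2 lists, 67 met this rule. In HL60 cells 39 of 8070 peaks did, 30 on TTN and 9 on NEB, and in HL60/MX2 cells 28 of 8122 did, 14 on TTN and 14 on NEB. The genes were chosen by their peak counts, so these counts are a description and were not tested. HL60 is a human promyelocytic leukaemia line labelled as wild type, and HL60/MX2 is its drug-resistant derivative. Both lines were grown in the same medium, and each gave 1 m7G-enriched (IP) library and 1 input library. In m7G MeRIP-seq, mRNA is decapped and fragmented, fragments are pulled down with an antibody against m7G, and regions with more reads in the IP library are called as peaks. With 1 library per line there was no spread between replicates, so no test between the lines was made, and all intervals are 95% intervals that cover counting error only. For each peak the lists give a position, a strand and a score. Read counts are not among the columns, and the depth is therefore unknown. They hold no expression values, so neither the level of the 2 mRNAs in these cells nor markers of the cell type could be examined.

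Titin runs from the Z-disc to the M-band of the sarcomere and acts as a molecular spring. Its Z-disc end anchors the protein, its I-band portion stretches and includes the PEVK segment rich in proline, glutamate, valine and lysine, and its A-band portion of immunoglobulin and fibronectin type III domains is bound to the thick filament. Nebulin lies along the thin filament and is built of short actin-binding repeats grouped into super-repeats. Both proteins are known for skeletal muscle, and titin also for heart. On hg19, TTN lies on the minus strand at chr2:179390716-179695529 and NEB on the minus strand at chr2:152341850-152591001. The longest coding transcript of TTN has 363 exons and encodes 35991 residues, and that of NEB has 182 exons and encodes 8525 residues. Exons made up 39.0% of the TTN locus and 13.4% of the NEB locus when merged over all transcripts. The GC content of the merged exons was 43.6% in TTN and 43.9% in NEB. The GC content of the peaks was 43.7% and 43.6% in TTN and 45.3% and 46.0% in NEB, in HL60 and HL60/MX2 cells. All 67 peaks lie on the minus strand by the rule that chose them, and neither list held a plus-strand peak within either gene.

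Both genes contain a block of exons present in 3 nearly identical copies. In NEB these exons held a larger share of the peaks than of the transcript, with peaks on the copies counted separately. The copies were found as exons of the same length and at least 95% identity a fixed number of exons apart. In NEB the unit has 8 exons and forms exons 82 to 89, 90 to 97 and 98 to 105, and 14 of the 24 pairs of corresponding exons were identical, with a lowest identity of 98.1%. In TTN the unit has 9 exons within the PEVK segment and forms exons 172 to 180, 181 to 189 and 190 to 198, with 17 of 27 pairs identical and a lowest identity of 97.53%. The sequences below are NEB peaks in this block, chosen because the peaks of the 2 lines met on 1 copy (exons 88, 96 and 104) or because 2 peaks of 1 list had the same sequence (exons 85 and 93). They were read from the hg19 genome on the minus strand, 5' to 3', and the capital in the first pair marks the base at which exons 88 and 96 differ, written C108T with positions counted from the first base of exon 88.
NEB exon 88, HL60, chr2:152458415-152458522: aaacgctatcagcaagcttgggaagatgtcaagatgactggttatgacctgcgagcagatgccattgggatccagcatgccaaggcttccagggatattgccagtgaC
NEB exon 96, HL60/MX2, chr2:152447862-152447969: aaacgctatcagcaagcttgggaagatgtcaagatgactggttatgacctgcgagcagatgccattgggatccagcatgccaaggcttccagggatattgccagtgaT
NEB exon 104, HL60/MX2, chr2:152437311-152437357: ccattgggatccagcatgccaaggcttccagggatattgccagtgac
NEB exon 85 and, with the same sequence, exon 93, HL60, chr2:152461074-152461165 for exon 85: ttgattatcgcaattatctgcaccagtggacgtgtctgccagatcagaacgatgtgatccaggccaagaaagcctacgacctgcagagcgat

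The peaks listed in both lines at the same place numbered 3, of which 2 lay in TTN and 1 in NEB. Their sequences are shown for the longer of the 2 peaks, with capitals for the bases that the peaks of both lines cover.
TTN exon 31, HL60/MX2, chr2:179638565-179638837: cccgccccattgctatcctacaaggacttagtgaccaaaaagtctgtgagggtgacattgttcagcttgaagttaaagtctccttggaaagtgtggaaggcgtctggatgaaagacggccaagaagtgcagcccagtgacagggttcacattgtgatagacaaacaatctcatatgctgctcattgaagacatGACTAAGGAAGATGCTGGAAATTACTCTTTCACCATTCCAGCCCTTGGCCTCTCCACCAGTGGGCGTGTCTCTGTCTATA
TTN exon 181, HL60 and HL60/MX2, chr2:179523899-179523982: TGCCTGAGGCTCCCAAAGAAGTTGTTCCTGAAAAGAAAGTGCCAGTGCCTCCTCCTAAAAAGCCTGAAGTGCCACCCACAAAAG
NEB exon 142, HL60, chr2:152392205-152392309: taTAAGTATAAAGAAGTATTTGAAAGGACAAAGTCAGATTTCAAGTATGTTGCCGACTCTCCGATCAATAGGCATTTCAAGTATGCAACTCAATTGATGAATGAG
The highest score of each gene in each list belonged to these sequences, beside NEB exon 88 above. They are shown in lower case throughout.
TTN exon 348, HL60, chr2:179407389-179407676: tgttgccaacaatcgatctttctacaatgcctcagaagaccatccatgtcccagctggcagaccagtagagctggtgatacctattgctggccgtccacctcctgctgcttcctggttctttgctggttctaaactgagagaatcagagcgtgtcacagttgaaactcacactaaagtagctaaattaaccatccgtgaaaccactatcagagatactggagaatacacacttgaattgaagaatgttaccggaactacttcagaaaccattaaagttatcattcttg
TTN exon 211, HL60/MX2, chr2:179514544-179514552: ctcctaaag
NEB exon 92, HL60/MX2, chr2:152452574-152452672: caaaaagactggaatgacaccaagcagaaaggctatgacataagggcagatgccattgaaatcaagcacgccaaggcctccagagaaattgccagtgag

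In TTN, more peaks were listed in HL60 than in HL60/MX2 cells, and in NEB fewer. Per kb of merged exon, TTN had 0.252 peaks in HL60 cells (0.17 to 0.36, exact Poisson) and 0.118 in HL60/MX2 cells (0.0643 to 0.197). NEB had 0.269 peaks per kb in HL60 cells (0.123 to 0.51) and 0.418 in HL60/MX2 cells (0.228 to 0.701). The intervals of the 2 lines overlapped in both genes, in TTN only at their ends, and such overlap is no test between the lines. Over all 20163 protein-coding genes the rates were 0.0694 and 0.0699 peaks per kb. The rate of TTN was thus 3.63 times that of all genes in HL60 and 1.69 times in HL60/MX2 cells, and the rate of NEB was 3.88 and 5.98 times that of all genes. As background, 27.0% of all protein-coding genes carried at least 1 listed peak in HL60 cells, and 29.5% did in HL60/MX2 cells.

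A count of exons gave a smaller excess than a count of peaks. In HL60 cells 25 of the 363 TTN exons carried a peak (6.89%, 4.51 to 10.0, Clopper-Pearson), against 3.06% of all 211798 exons. In HL60/MX2 cells 12 of the 363 TTN exons did (3.31%, 1.72 to 5.7), against 3.15% of all exons. For NEB the shares were 9 of 182 exons (4.95%, 2.29 to 9.18) in HL60 and 14 of 182 (7.69%, 4.27 to 12.6) in HL60/MX2 cells. These counts come from the peaks that chose the genes and are a description. The median exon measured 261 bp in TTN and 108 bp in NEB.

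Among the 313 protein-coding genes with at least 20 kb of merged exon, TTN had the fifth highest rate of peaks per kb in HL60 cells and stood at rank 41 in HL60/MX2 cells. NEB stood at rank 4 in HL60 and rank 2 in HL60/MX2 cells. The median rate of these genes was 0.0344 in HL60 and 0.0398 in HL60/MX2 cells, and the highest rates were those of PIEZO2 (0.429) in HL60 and VPS13D (0.433) in HL60/MX2 cells. Other giant genes ranged widely. MACF1, a cytoskeletal crosslinker with 70.57 kb of exon, had 1 peak in HL60 and 4 in HL60/MX2 cells (0.0142 and 0.0567 per kb), and SYNE1, a nuclear envelope spectrin-repeat protein with 146 exons, had 5 in each. RYR1, the calcium release channel of skeletal muscle, had 0 peaks in HL60 and 3 in HL60/MX2 cells. Of the other genes with the most exons, MUC19 had 9 and 3 peaks (0.305 and 0.102 per kb) and NBPF20 had 4 and 7 (0.246 and 0.431 per kb), so rates as high as those of TTN and NEB occurred in other genes with many exons. In the plot of peaks against exon length no gene is near TTN in length, and NEB stands at the upper edge of the genes of its length.

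**Figure D1:**
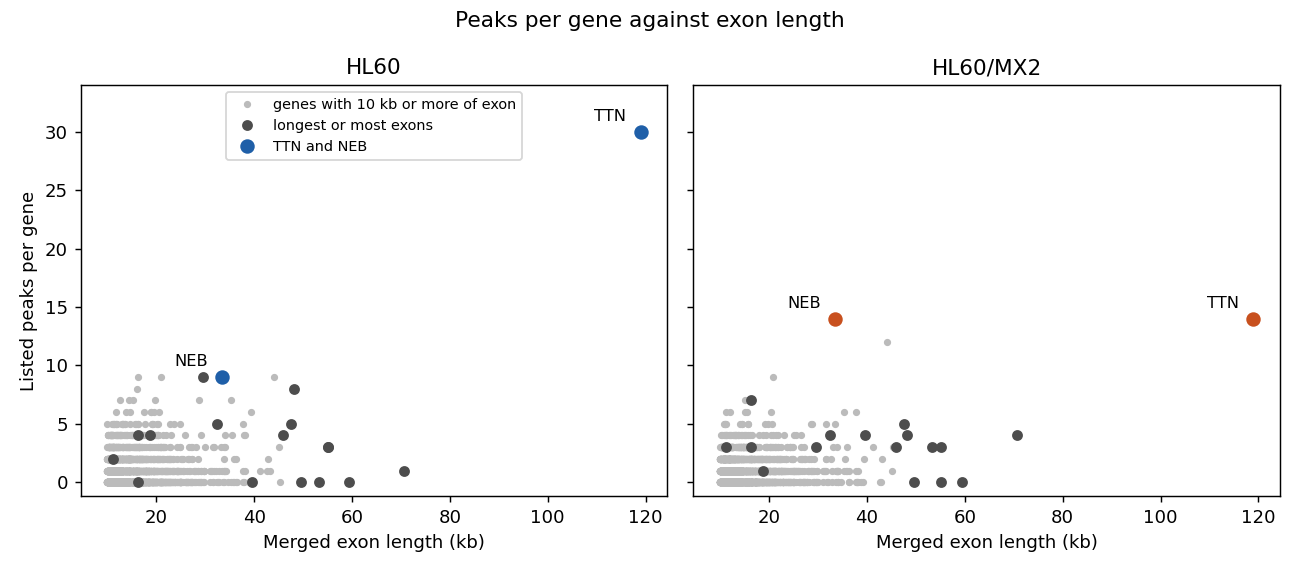
Listed peaks per gene (y axis, count) against merged exon length (x axis, kb) for protein-coding genes with at least 10 kb of exon, in HL60 cells on the left and HL60/MX2 cells on the right. Coloured points are TTN and NEB, dark points are the other genes among the 10 longest or the 10 with the most exons, and TTN stands alone at 119 kb with 30 and 14 peaks.

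Along titin, the peaks of HL60 cells reached every band, and those of HL60/MX2 cells lay mostly before the A-band. The bands were taken as exons 1 to 28 (Z-disc), 29 to 251 (I-band), 252 to 357 (A-band) and 358 to 363 (M-band), and the PEVK segment, found by its composition, spans residues 10249 to 13639 in exons 112 to 224. In the Z-disc exons there was 1 peak in each line, in exon 3 in HL60 cells (score 176.07) and in exon 12 in HL60/MX2 cells (score 95.61). In the I-band exons before the PEVK segment there were 6 peaks in HL60 and 5 in HL60/MX2 cells, which correspond to 0.248 and 0.207 peaks per kb. The PEVK segment, 9.38% of the transcript, held 6 peaks in HL60 (0.586 per kb, 0.215 to 1.27) and 4 in HL60/MX2 cells (0.39 per kb, 0.106 to 1.0). Its 113 exons are short, with a median of 84 bp, and counted by exon no such excess was seen. A peak was listed in 5.31% of them in HL60 and 3.54% in HL60/MX2 cells, beside 6.89% and 3.31% of all TTN exons. After the PEVK segment the I-band exons held 1 peak in HL60 cells, over the whole of exon 246 (score 131.01), and 0 in HL60/MX2 cells.

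In the A-band, which makes up 49.3% of the transcript, 12 peaks were listed in HL60 cells and 2 in HL60/MX2 cells. These are 0.223 peaks per kb (0.115 to 0.39) in HL60 and 0.0372 (0.0045 to 0.134) in HL60/MX2 cells, and the ends of the intervals overlapped. Of the 106 A-band exons, 10 carried a peak in HL60 cells (9.43%) and 2 in HL60/MX2 cells (1.89%). The longest exon of the gene, exon 326 with 17106 bp, held 3 peaks in HL60 cells, at residues 24170 to 24361 (score 554.40), 25487 to 25579 (score 286.43) and 26513 to 26588 (score 286.43). It held none in HL60/MX2 cells, where the A-band peaks lay in exons 305 (score 431.72) and 315 (score 324.78). The last peak of the transcript lay in the M-band exon 358 in HL60 cells (score 143.30), and HL60/MX2 cells had 0 peaks in the M-band exons.

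**Figure D2:**
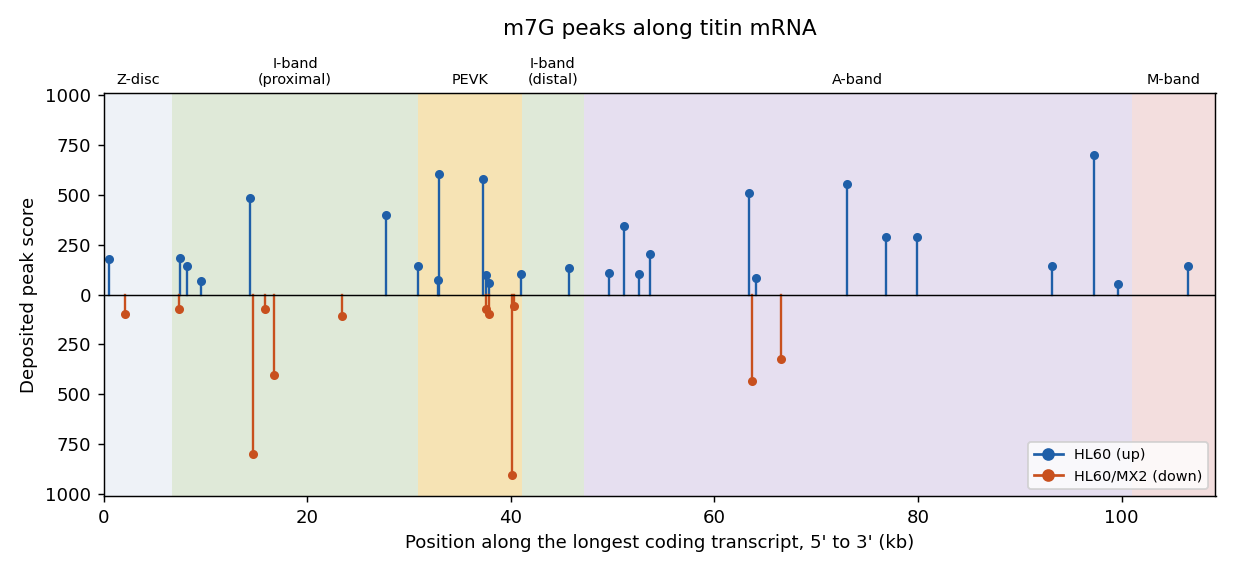
Peaks along the longest coding transcript of TTN (x axis, kb from the 5' end), with the deposited score on the y axis, HL60 drawn upwards and HL60/MX2 downwards, and 1 stem per peak at its midpoint. Shading marks the Z-disc, I-band, PEVK, A-band and M-band exons. Over the A-band 12 stems stand above the line and 2 below it; the 5 peaks on other transcripts are not drawn.

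Most titin peaks ended at an exon border. In HL60 cells 9 of the 30 TTN peaks covered a whole exon, 13 reached 1 end of an exon, 5 lay inside a longer exon and 3 lay outside the longest transcript. In HL60/MX2 cells 6 of the 14 covered a whole exon, 6 reached 1 end and 2 lay outside the transcript. This was not particular to titin, because 2 of the 9 NEB peaks in HL60 cells covered a whole exon and 7 reached 1 end. In HL60 cells all bases of the TTN and NEB peaks lay within exons. The share of such peaks over all listed peaks is not given here. In the PEVK segment, whose exons have a median of 84 bp, 5 of the 6 peaks in HL60 and 3 of the 4 in HL60/MX2 cells covered a whole exon. The shortest TTN peak in HL60 cells measured 19 bp and the longest 572 bp, with a median of 163.5 bp. The HL60/MX2 peaks measured 9 to 400 bp with a median of 152.5 bp. The peak of 9 bp lay at the 3' end of exon 211 in the PEVK segment and had the highest TTN score of its list (903.50), and its 9 bases occur 12 times in the gene.

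The peaks outside the longest transcript lay on exons of other titin transcripts. In HL60 cells all 3 lay in the last exon of TTN-204, a transcript that ends within the I-band after 46 exons. Their positions were chr2:179611548-179611756 (score 420.55), chr2:179612687-179613158 (score 160.55) and chr2:179614591-179614910 (score 568.35). The same exon, of 7635 bp, held 1 peak in HL60/MX2 cells, at chr2:179609504-179609903 (score 354.84), and overlapped none of the HL60 peaks. The other HL60/MX2 peak, at chr2:179695398-179695663 (score 363.16), covered the first exon of TTN-205 by 132 bases and the neighbouring gene CCDC141 by 266 bases, so its gene is uncertain.

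In both lists the titin scores spread around the median of the list, and the nebulin scores stood mostly above it. The scale of the score is not stated, so scores were compared within a list only. The lowest, median and highest TTN scores in HL60 cells were 54.75, 168.3 and 702.41, and 13 of 30 reached the median of the list (196.8). For HL60/MX2 cells they were 56.55, 215.7 and 903.50, and 7 of 14 reached the median of the list (259.7). The NEB scores in HL60 cells were 156.14 at the lowest, 394.3 at the median and 1189.18 at the highest, and 7 of 9 reached the median of the list. The corresponding HL60/MX2 scores were 64.14, 499.5 and 2336.47, and 11 of 14 reached it.

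**Figure D3:**
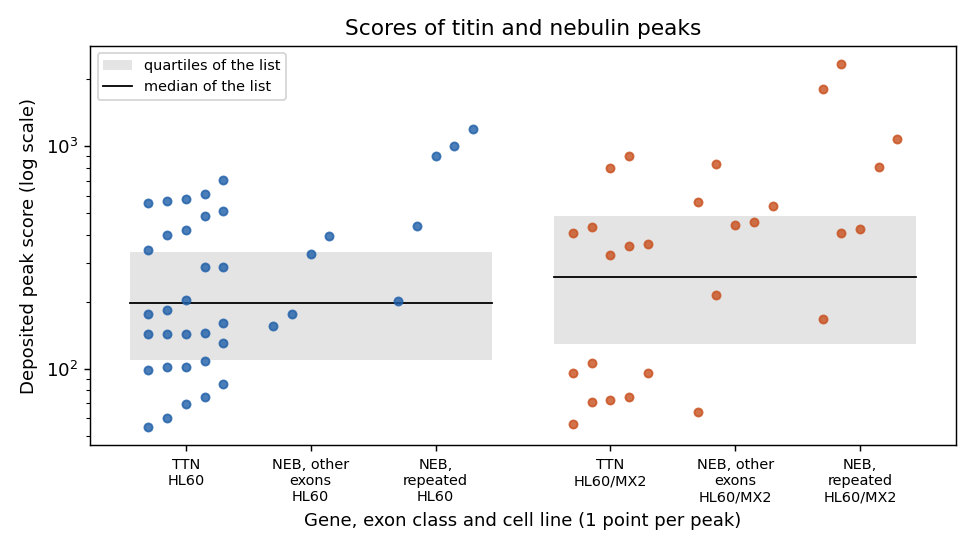
Deposited score of each peak (y axis, log scale) by gene, exon class and cell line (x axis), with 1 point per peak. The grey band and black line are the quartiles and the median of all peaks of the list (196.8 in HL60, 259.7 in HL60/MX2), and the highest points are nebulin peaks in the repeated exons.

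Along nebulin, the peaks were densest per kb in the repeated exons 82 to 105 in both lines, with the copies counted separately. These exons make up 16.7% of the transcript and held 5 of the 9 peaks in HL60 cells (55.6%, 21.2 to 86.3, Clopper-Pearson) and 7 of the 14 in HL60/MX2 cells (interval 23.0% to 77.0%). The rate was 1.14 peaks per kb in HL60 (0.371 to 2.67) and 1.6 in HL60/MX2 cells (0.643 to 3.3). Before these exons it was 0.16 and 0.319, and after them 0.215 and 0.323 peaks per kb. These shares, rates and intervals count peaks on corresponding exons of the copies separately, although the copy such a peak belongs to is uncertain. Counted once per position of the unit, NEB had 7 distinct peaks in HL60 and 11 in HL60/MX2 cells, of which 4 and 7 lay outside these exons. The scores in the repeated exons had a median of 907.5 in HL60 and 809.9 in HL60/MX2 cells, against 251.4 and 458.3 in the other exons. The repeated exons of TTN make up 2.07% of its transcript. They held 3 of 30 peaks in HL60 (10.0%, 2.11 to 26.5) and 2 of 14 in HL60/MX2 cells (14.3%, 1.78 to 42.8). The lower ends of both intervals lay close to 2.07%. These short exons are 27 of the 363 exons of TTN, so counted by exon the excess was smaller. Unlike those of NEB, the TTN peaks in these exons had scores with medians below those of the other exons, 99.15 against 176.1 in HL60 and 83.48 against 339.8 in HL60/MX2 cells.

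In HL60 cells the NEB peaks outside the repeated exons lay in exons 51 (score 156.14), 81 (score 176.07), 114 (score 326.70) and 142 (score 394.28). The corresponding HL60/MX2 peaks lay in exons 1, 26, 30, 62, 142, 147 and 151, with scores of 559.43, 215.63, 829.20, 458.30, 540.63, 64.14 and 440.53. The peak of exon 1 was the one NEB peak in the 5' untranslated region, and it ended at the annotated start of the gene. In the other exons of NEB the 2 lines thus met in exon 142 alone.

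**Figure D4:**
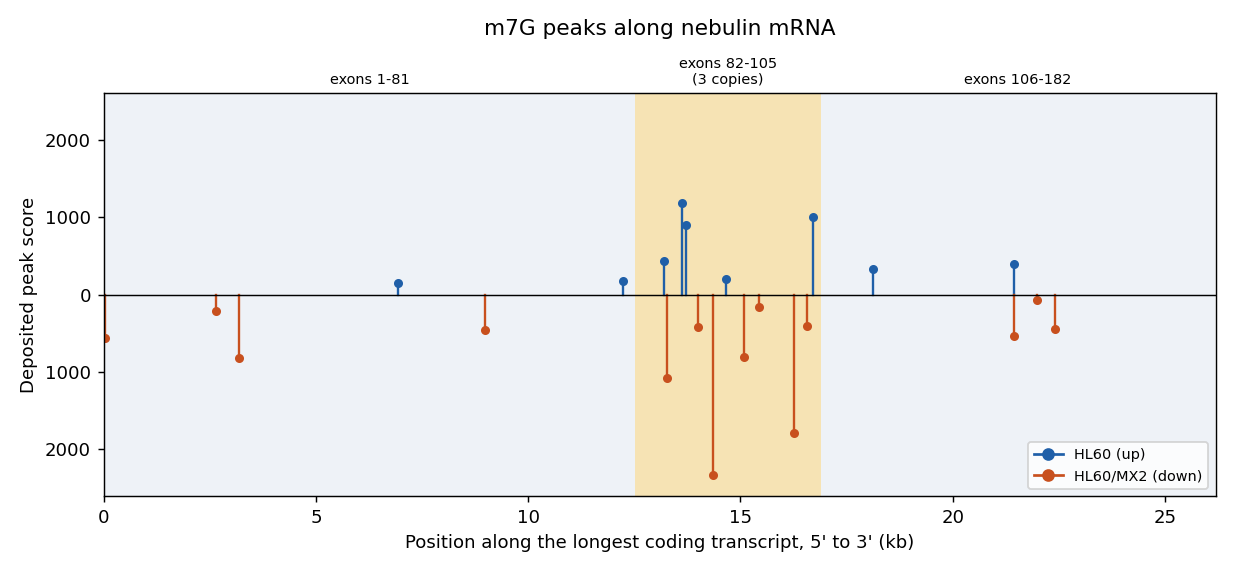
Peaks along the longest coding transcript of NEB (x axis, kb from the 5' end), with the deposited score on the y axis, HL60 drawn upwards and HL60/MX2 downwards, and 1 stem per peak at its midpoint. The shaded exons 82 to 105, the 3 copies of the 8-exon unit, hold 5 of 9 and 7 of 14 stems, among them the highest of each line.

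Within the repeated exons, the same part of the unit often carried a peak in more than 1 copy of the same list. In HL60 cells the peaks of exons 85 (score 437.13) and 93 (score 202.29) had the same 92 bases. The peaks of exons 89 (score 907.46) and 105 (score 1006.67) overlapped by 115 bases once placed on 1 copy, with 0 differences between them. The HL60/MX2 list held 3 pairs that overlapped on 1 copy. Exons 86 (score 1079.22) and 102 (score 1799.40) overlapped by 34 bases with 0 differences, and exons 90 (score 422.97) and 98 (score 167.70) by 14 bases with 0 differences. Exons 96 (score 809.88) and 104 (score 407.72) overlapped by 47 bases with 1 difference. Counted once per position of the unit, NEB had 7 distinct peaks in HL60 and 11 in HL60/MX2 cells. The peak with the highest NEB score, in exon 92 of HL60/MX2 cells (2336.47), had no listed counterpart in the other copies. Exons 92 and 100 are identical, and the 99 bases of this peak occur 2 times in the gene. How reads that map equally well to several copies were placed is not given in the sources used here, so the copy to which such a peak belongs is uncertain.

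No genomic position in the repeated exons of NEB was shared by the lines, and placed on 1 copy they met in exon 7 of the unit only. The HL60 peak of exon 88 (score 1189.18) covered the whole exon, as did the HL60/MX2 peak of exon 96, the corresponding exon of the next copy. The 2 peaks share all but 1 of 108 bases, which is the last base of the exon, shown above. The HL60/MX2 peak of exon 104, in the copy after that, covered 47 bases at the 3' end with 0 differences from exon 88. On 1 copy, 2 of the 9 HL60 peaks overlapped an HL60/MX2 peak, against 1 of 9 on the genome.

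**Figure D5:**
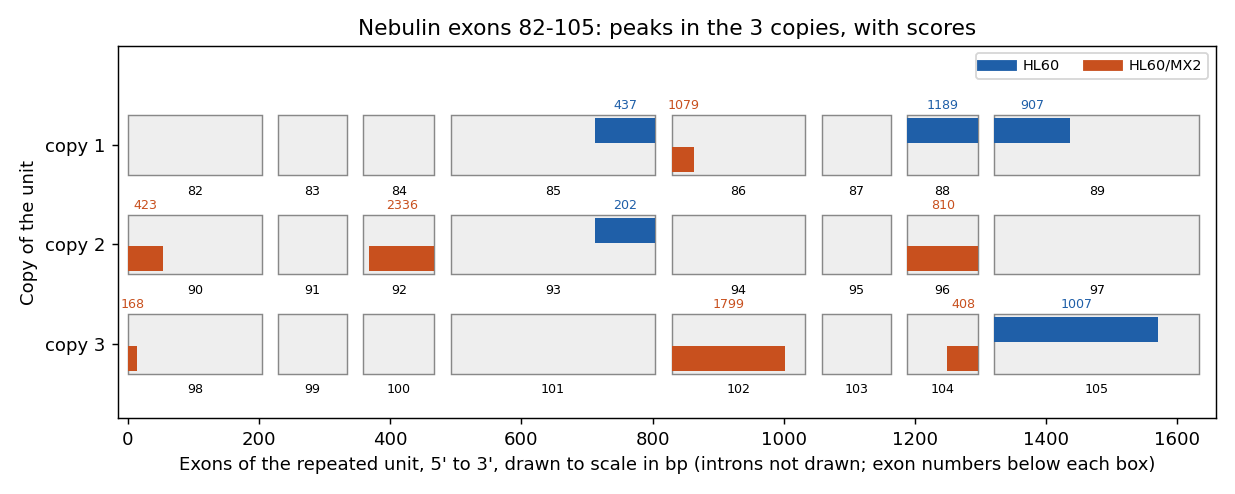
The 3 copies (rows) of the 8-exon unit of NEB, with exons as boxes to scale (x axis, bp; introns not drawn) and peaks as bars, HL60 in the upper and HL60/MX2 in the lower part of each box. Numbers above boxes are scores rounded to whole numbers and numbers below are exons. The pairs 85 and 93, 89 and 105, 86 and 102, 90 and 98, and 96 and 104 hold peaks of the same line that overlap on the unit.

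The peaks shared on the genome differed in extent and score. In TTN exon 31, in the I-band before the PEVK segment, the HL60 peak covered the last 80 bases (score 182.89) and the HL60/MX2 peak the whole exon of 273 bp (score 74.65). In TTN exon 181, in the PEVK segment, both peaks covered the whole exon of 84 bp, with scores of 99.15 in HL60 and 71.35 in HL60/MX2 cells. This exon opens the second copy of the repeated unit, and its sequence occurs 4 times in the gene. In NEB exon 142 the peaks covered 105 bp (score 394.28) and 103 bp (score 540.63) and overlapped by 103 bp. Thus 2 of 30 TTN peaks and 1 of 9 NEB peaks of HL60 cells, and 2 of 14 and 1 of 14 of HL60/MX2 cells, were shared. The paper also reported few identical peaks between the whole lists. It counted identical peaks, and the share of all peaks by the overlap used here is not given. Whether few shared peaks are particular to these genes was therefore not tested. The median distance from an HL60 peak to the nearest HL60/MX2 peak was 10154 bp in TTN and 1962 bp in NEB, and from an HL60/MX2 peak to the nearest HL60 peak it was 4750 bp and 4638 bp.

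Peaks were also listed in some of the genes around TTN and NEB. Of 13 protein-coding genes within 1 Mb of TTN, peaks were listed in 2 in HL60 cells (4 peaks) and in 7 in HL60/MX2 cells (15 peaks), beside 27.0% and 29.5% of all genes. CCDC141, the neighbour at the 5' end of TTN, had 3 peaks in HL60 and 6 in HL60/MX2 cells (0.194 and 0.387 per kb). The HL60/MX2 counts include the peak at chr2:179695398-179695663, which is also counted among the TTN peaks. Of 12 genes within 1 Mb of NEB, 5 had a peak in each line, with 7 and 10 peaks in all, beside the same background. FMNL2, a formin that acts on actin filaments, had 0 in HL60 and 5 in HL60/MX2 cells (0.761 per kb).

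Other genes of the sarcomere were taken as a list of 68 genes of the thick filament, thin filament, Z-disc, M-band and the I-band partners of titin, without TTN and NEB. Of these, 26 carried a peak in HL60 cells (38.2%, against 27.0% of all genes), 25 carried a peak in HL60/MX2 cells (36.8%, against 29.5%), and 13 did in both. Their median exon length was 4.67 kb, against 4.39 kb over all genes. The 26 and 25 genes held 44 and 39 peaks, and 3 of the 44 HL60 peaks overlapped an HL60/MX2 peak. The share of all HL60 peaks by this overlap is not given, and the count of identical peaks in the paper is a different measure. By group, a peak was listed in 8 of 13 thick filament genes in HL60 and 5 in HL60/MX2 cells, in 6 of 20 thin filament genes in each, in 8 and 6 of 19 Z-disc genes, in 3 and 5 of 8 M-band genes, and in 1 and 3 of 8 I-band partners.

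Among the 13 sarcomere genes with a peak in both lines, the thick filament gene MYH7, a myosin heavy chain, had 2 peaks in HL60 and 1 in HL60/MX2 cells, MYL1, a myosin light chain, had 2 and 1, and MYBPC1, a myosin-binding protein, had 3 and 1. TNNI1, a troponin I, had 3 and 1, and TMOD1, which caps the pointed ends of thin filaments, had 2 and 1. The M-band genes MYOM1 and MYOM2, which crosslink titin and myosin, had 3 and 1, and 1 and 2. The nebulin relatives NEBL and NRAP had 1 and 2, and 1 and 4, and the Z-disc genes LDB3, PALLD, SYNPO2 and XIRP2 had 1 and 2, 2 and 3, 2 and 3, and 1 and 2. Per kb of exon, several of these shorter genes had higher rates than TTN and NEB, among them MYL1 with 1.51 in HL60 and 0.754 in HL60/MX2 cells, TMOD1 with 0.544, MYOM1 with 0.466 and MYBPC1 with 0.402 in HL60 cells, and NRAP with 0.706 in HL60/MX2 cells. Others had lower rates, such as NEBL with 0.0561 and 0.112. These genes were named for a peak in both lists, and in a short gene such as MYL1 (1.326 kb) 1 peak gives a high rate. Of the 68 sarcomere genes only 26 in HL60 and 25 in HL60/MX2 cells carried a peak, so these rates do not describe the list.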

How the data were processed

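The peak lists of the 2 m7G-enriched libraries were analysed. Input libraries and expression values from RNA sequencing were not used here. The authors trimmed reads with Cutadapt (1.9.3) and aligned them to hg19 with Hisat2 (2.0.4). They called peaks with MACS and differential sites with diffReps. Peaks found by both programs were kept where they lay over exons of protein-coding genes. The version and settings of MACS are not given in the sources used here. Each list has 6 columns, among them a score per peak, deposited by the authors on a scale that is not stated. Starts were counted from 1. Genes came from GENCODE release 44 on GRCh37, with 20163 protein-coding genes outside the mitochondrion, and positions are those of the longest coding transcript. The band borders of titin follow common usage for the Z-disc (exon 28) and M-band (last 6 exons), and the A-band was started at the exon with the first fibronectin type III signature. The PEVK segment is the stretch where at least 55% of residues in a window of 201 were P, E, V or K. The members and the gene lists were chosen with earlier results of these data known. The genes named were TTN and NEB, protein-coding genes within 1 Mb with a peak, the 10 longest genes, the 10 with the most exons, and sarcomere genes with a peak in both lists; PIEZO2 and VPS13D were named after their values were seen. An item covered by this rule is not reported here. Alternatives changed the exons, the overlap, the strand, the score, the peak length and the treatment of repeated exons. The assignment of peaks was tested on simulated data. Python 3.11.15, numpy 2.4.6, scipy 1.17.1 and matplotlib 3.10.9 were used.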

Additional observations from a re-analysis of the deposited data

Results flagged for a closer look

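Each peak name carries a running number that rises along the chromosome, and the numbers skip between listed peaks. The numbers that belong to no listed peak are given here because they lie outside the values compared in the report. Between the first and the last listed peak of TTN, 83 numbers in HL60 and 58 in HL60/MX2 cells belong to no listed peak. In NEB these were 46 in HL60 and 64 in HL60/MX2 cells. Per Mb, the numbers rose by 412 and 285 in TTN and by 451 and 368 in NEB, against 343 in HL60 and 285 in HL60/MX2 cells over chromosome 2. With 1 Mb on each side the values were 366 and 315 for TTN and 358 and 305 for NEB. What the missing numbers stood for was not tested.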

How the results depend on the processing

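Of 68 values recomputed over 26 results, 57 kept within 1.5 times the value reported and 11 moved further. With peaks at or above the median score of their list, TTN had 13 peaks in HL60 (0.109 per kb) and 7 in HL60/MX2 cells (0.0588 per kb), while NEB stayed within that range. Where at least 50% of an exon had to be covered, TTN had 14 exons with a peak in HL60 cells, and NEB had 5 in HL60 and 9 in HL60/MX2 cells. Where 50% of both peaks had to overlap, TTN had 1 shared peak. The exons used, the strand, a minimum length of 50 bp and the peak midpoint moved no count by more than 1.5 times. The next settings were chosen after seeing the data. Without peaks of 30 bp or more that have an exact second copy in the gene, NEB had 5 peaks in HL60 and 9 in HL60/MX2 cells. With the repeated exons placed on 1 copy, NEB had 2 shared peaks. Assigning peaks to the gene of largest overlap only left 13 TTN peaks in HL60/MX2 cells. No paired analysis was possible because each line has 1 enriched library, and for the same reason no replicate could be left out. Precision is limited by how few peaks each gene has.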

Other observations

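The deposited scores took the same value in many peaks. In HL60 cells 57.8% of the listed peaks shared their score with another peak of the list, and in HL60/MX2 cells 56.5% did. Of the TTN peaks, 24 of 30 in HL60 and 10 of 14 in HL60/MX2 cells shared their score with another peak, and of the NEB peaks 6 of 9 and 10 of 14 did. The score of 143.30 was held by the TTN peaks of exons 111, 339 and 358 and by 74 peaks of the HL60 list, 286.43 by both later peaks of exon 326 and by 64 peaks, and 101.45 by the peaks of exons 222 and 274 and by 87 peaks. In HL60/MX2 cells 95.61 was held by the TTN peaks of exons 12 and 185 and by 59 peaks. Peaks with the same score are thus not ranked among themselves.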
